A study of Mus musculus with 12 samples.

Results

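The effect of IFNα on FO B cells that received CpG was examined by comparing 3 CpG + IFNα samples with 3 CpG samples, 6 of the 12 samples of the series, chosen by their labels. The table held 22561 genes, of which 9431 had enough counts to be tested. FO (follicular) B cells, the most abundant mature B cells of the spleen, had been sorted from 10-week-old C57BL6 mice by surface markers that include B220, AA4.1, CD23 and CD21 (B220hi AA4.1- CD23+ CD21mid). The CpG group received CpG at 1 μg/mL for 12 h, and the CpG + IFNα group received that CpG together with IFNα at 0.1 μg/mL over the same time. A second description of the same experiment gives CpG at 0.1 μg/mL in the CpG + IFNα group, and a difference in CpG dose could not be told apart from IFNα. The other groups were IFNα alone at 0.1 μg/mL for 12 h and unstimulated cells, for which no time in culture is stated. The labels name no transgene or mutation in any group. The labels number the samples of a group without stating that they came from separate mice, so that p-values measure the spread between these samples. The comparison asks how IFNα changes expression in FO B cells that also receive CpG, in a study of how these cells become plasma cells (PCs).

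CpG is a synthetic DNA that TLR9 senses in endosomes, from where MYD88 leads to NF-κB, AP-1 and IRF family factors. IFNα is a type I interferon. It binds IFNAR1 and IFNAR2, and the kinases JAK1 and TYK2 then phosphorylate STAT factors, among them STAT2, which joins IRF9 in a complex that binds the interferon-stimulated response element (ISRE) in the promoters of antiviral genes.

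The core of the ISRE is a repeat of GAAA with 2 bases between the copies, GAAANNGAAA, and RefSeq promoters (GRCm38.p6) were searched for it on both strands from 250 bases before to 50 bases after each annotated start. Promoters were matched by symbol for 204 of the 278 genes that rose more than 2-fold (2.95% of those tested), for 134 of the 190 that fell more than 2-fold (2.01%), and for 7234 of the 9431 genes tested. The motif lay in a promoter of 63 of the 204 genes that rose (30.9%), of 2 of the 134 that fell (1.49%) and of 293 of the 7234 genes tested (4.05%). Counted by promoters, 67 of 266 promoters of the genes that rose held it (25.2%), against 306 of the 9178 promoters of all genes tested (3.33%) and 1131 of all 32851 promoters of the reference table (3.44%). Of the genes that rose and that also rose more than 2-fold with IFNα alone, 54 of 149 held the motif (36.2%), and of those that passed this mark only with CpG present, 9 of 55 held it (16.4%). These are descriptions of letters in a window, and they do not show that a factor bound there. Some promoters of genes that rose with the smallest p-values are printed to show the motif in its place, 30 bases each, 5′ to 3′ in the direction of the gene, with the first match of the motif or its reverse complement in capitals. In Isg15 and Bst2 a second match overlaps the first and runs on into the lower-case letters.

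Isg15 (chr4:156200877-156200906, minus strand, motif from 78 to 69 bases before the start): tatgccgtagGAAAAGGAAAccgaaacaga
Cxcl10 (chr5:92349083-92349112, minus strand, motif from 213 to 204 bases before the start): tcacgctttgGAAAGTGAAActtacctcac
Oas3 (chr5:120777715-120777744, minus strand, motif from 75 to 66 bases before the start): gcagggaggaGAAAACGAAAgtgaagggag
Bst2 (chr8:71537583-71537612, minus strand, motif from 130 to 121 bases before the start): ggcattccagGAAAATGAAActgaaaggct
Rsad2 (chr12:26456553-26456582, minus strand, motif from 120 to 111 bases before the start, reverse): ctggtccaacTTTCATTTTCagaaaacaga
Ifit1 (chr19:34640775-34640804, plus strand, motif from 104 to 95 bases before the start, reverse): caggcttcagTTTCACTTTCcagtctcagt
Slfn8 (chr11:83020839-83020868, minus strand, motif from 136 to 127 bases before the start, reverse): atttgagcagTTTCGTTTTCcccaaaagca

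The flanking bases differ between these genes. Trim30a (chr7:104465210-104465239, minus strand, motif from 36 to 27 bases before the start, reverse) and Trim30d (chr7:104507871-104507900, minus strand, motif from 41 to 32 bases before the start, reverse), near neighbours of 1 family, hold the same 30 bases.
Trim30a and Trim30d: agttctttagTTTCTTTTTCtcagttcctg

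**Figure D1:**
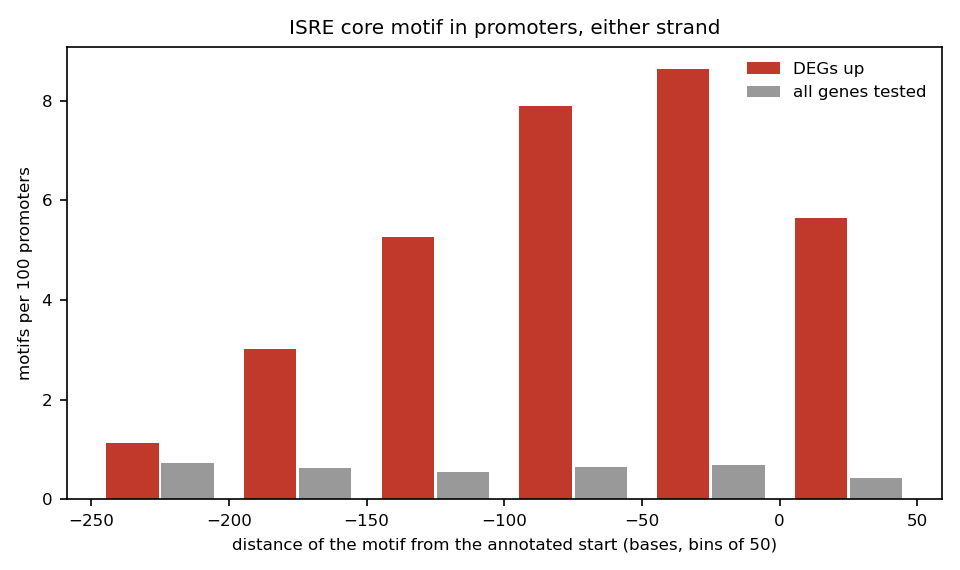
Motifs per 100 promoters (vertical axis) in bins of 50 bases by the distance of the motif's 5′ end from the annotated start (horizontal axis). Shown are the 266 promoters matched to 204 of the 278 genes that rose with IFNα in the presence of CpG, and the 9178 promoters matched to 7234 of the 9431 genes tested. The genes that rose have 8.65 motifs per 100 promoters in the 50 bases before the start and 1.13 in the bin farthest from it, and all genes tested stay between 0.425 and 0.719 in every bin.

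The 6 samples had 1393018 to 2923865 UMI counts, and each level is given as CPM, counts scaled to a common library size, after TMM normalization, so that 3 counts in a library correspond to about 1.83 CPM in the CpG samples and 1.40 CPM in the CpG + IFNα samples. The libraries were made by 3′ counting, so that a CPM value stands for molecules and not for transcript length. Replicates of a group differed by more than counting noise in all 12 pairs of the series, and the CpG + IFNα sample of replicate 2 stood farthest from the others of its group (chi-square per degree of freedom 4.478 and 6.306, against 2.67 between the other 2). The IFNα sample of replicate 2 likewise stood apart in its group (4.501 and 5.998, against 2.202). All 9 B cell markers passed the filter on low counts. Lyz2, Cd14, S100a8 and Fcgr1 of the myeloid markers, Cd3d, Cd3g, Cd8a and Gzma of the T and NK cell markers and Siglech and Klk1 of the plasmacytoid dendritic cell markers had 0 counts in all 6 samples, and the highest count of another T and NK cell marker was 23, of Ccl5. Mpeg1 of the myeloid markers and Cox6a2 of the plasmacytoid dendritic cell markers were detected and rose, and are described further below. Cells and RNA per cell cannot be told apart in bulk samples, so that a lower level may mean fewer cells of a kind or less RNA in each.

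Adding IFNα to CpG up-regulated 278 genes and down-regulated 190 genes by more than 2-fold at an adjusted p under 0.1 (DEGs), which is 2.95% and 2.01% of the 9431 genes tested. At any fold, 617 genes were higher (6.54%) and 833 were lower (8.83%). This balance depended on the scaling, with 659 higher and 747 lower by DESeq2 size factors and 714 higher and 690 lower when rRNA and mitochondrial genes were left out. The increases were larger than the decreases. The median fold change was 4.24 among DEGs that rose and 2.43 among those that fell. Fold changes over 4 were found for 150 genes that rose and 15 that fell, and fold changes over 16 for 54 that rose and for none that fell. With genes that had 0 counts in all CpG samples set to the limit of detection, these counts for genes that rose were 146 and 48. The replicates of the groups did not overlap for 273 of the 278 genes that rose and for 178 of the 190 that fell. DEGs were chosen by their difference between these same samples, so that these counts are a description and no further evidence. The share over all genes tested is not given here. Together the genes that rose went from 10307 to 38700 CPM, and those that fell from 7874 to 3341 CPM. Of the DEGs that rose, 246 were protein-coding, 15 were pseudogenes and 17 were of other kinds. The lists of genes by role used below held 140 of the DEGs that rose and 27 of those that fell. Counts of DEGs within a list are to be read beside the shares of 2.95% and 2.01% over all genes tested.

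**Figure D2:**
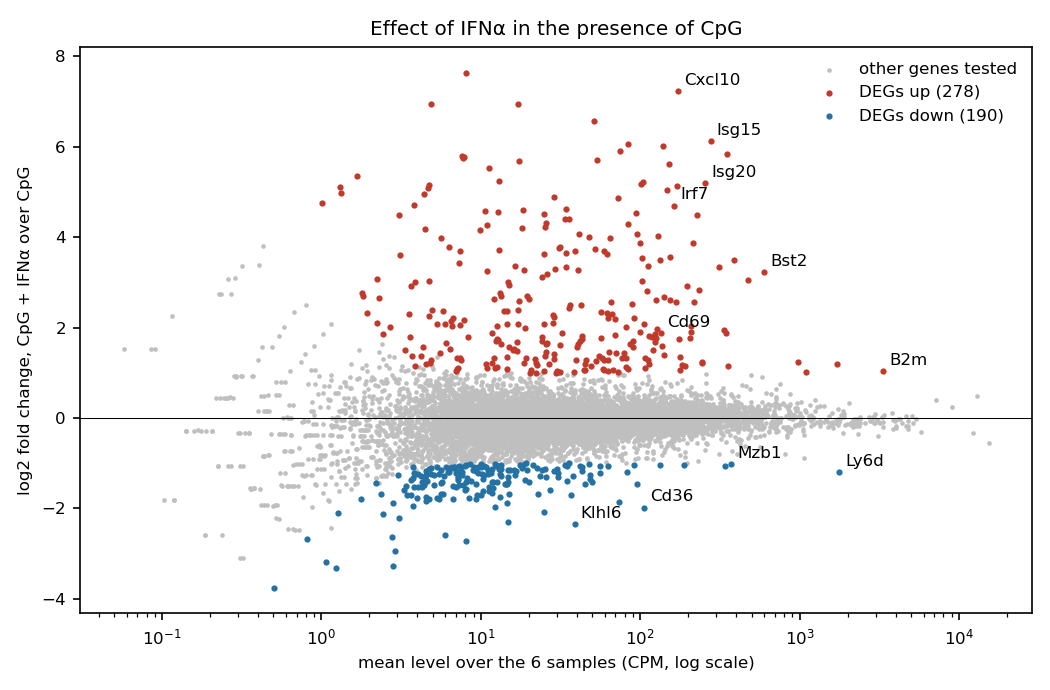
Log2 fold change of CpG + IFNα over CpG (vertical axis) against the mean level over the 6 samples in CPM (horizontal axis, log scale) for the 9431 genes tested. DEGs that rose (278) are drawn in red, DEGs that fell (190) in blue and other genes in grey, and the largest increases reach far beyond the largest decreases.

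The IFNα receptor genes and kinases were not among the DEGs. Ifnar2, a receptor subunit, had 24.6, 23.5 and 23.96 CPM in the CpG samples and 19.6, 23.5 and 26.7 CPM in the CpG + IFNα samples, with overlapping groups. Ifnar1, the other subunit, had 23.9, 26.4 and 26.96 CPM with CpG and 15.8, 18.6 and 15.9 CPM with both, which did not overlap, but the test did not call it (log2 fold change -0.60 ± 0.25 SE, adjusted p = 0.127). Ifnar1 was called lower with the replicate block or with the 6 samples alone (adjusted p from 0.0594 to 0.0728). Stat2 and Irf9, components of the ISRE-binding complex, were DEGs. Stat2 rose 10.1-fold, from 7.37, 5.702 and 5.49 to 56.7, 63.1 and 67.8 CPM, and Irf9 rose 4.62-fold, from 28.9, 32.8 and 36.4 to 139, 178 and 137 CPM. The feedback inhibitors Socs1 and Usp18 rose as well. Socs1, which blocks JAK kinases, had 6.14, 4.28 and 4.49 CPM with CpG and 48.00, 37.3 and 54.99 CPM with both (log2 fold change 3.19 ± 0.27 SE). Usp18, which removes ISG15 from proteins and restrains signaling at the receptor, went from 14.7, 5.702 and 7.49 to 338, 295 and 356 CPM (34.9-fold). Ptpn6, the gene of the phosphatase SHP-1, fell from 216, 189 and 237 to 129, 129 and 144 CPM (log2 fold change -0.68). Of 18 tested genes of the receptor and JAK-STAT pathway, 4 were DEGs that rose and none was a DEG that fell, against 2.95% and 2.01% of all genes tested. Their median log2 fold change was 0.00 against -0.04 over all genes tested.

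Among 8 tested genes listed as IRFs, Irf2bp2 included and Irf9 counted above with the JAK-STAT pathway, Irf7 and Irf1 were DEGs. Irf7, the IRF that amplifies type I interferon responses, had 15.96, 9.27 and 10.98 CPM with CpG and 297, 358 and 291 CPM with both (log2 fold change 4.70 ± 0.18 SE, adjusted p = 4.92e-20). Irf1 was low with CpG alone, at 6.14, 1.43 and 2.496 CPM, and reached 22.9, 26.2 and 20.6 CPM with both (6.83-fold). Irf4, which B cells need to become PCs, had 125, 132 and 126 CPM with CpG and 185, 154 and 198 CPM with both, an increase of 1.399-fold without overlap (adjusted p = 0.0238). Irf8, which is expressed throughout B cell life, fell slightly, from 757, 634 and 719 to 599, 521 and 613 CPM (log2 fold change -0.29, adjusted p = 0.0763). Irf3 and Irf5, which stand ready in resting cells, were not called (log2 fold changes -0.04 and -0.18). The median log2 fold change of this list was -0.06. Irf4 was not called without CpG + IFNα replicate 3 (adjusted p = 0.106), nor was Irf8 without CpG + IFNα replicate 1, CpG + IFNα replicate 2, CpG replicate 1 or CpG replicate 3 (adjusted p from 0.118 to 0.34), or with DESeq2 size factors, with no filter on low counts, with DESeq2, with thinned counts or without rRNA and mitochondrial genes (adjusted p from 0.121 to 0.42).

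Sensors of nucleic acids rose as a group. Of 29 tested genes, 20 were DEGs that rose and 1 was a DEG that fell, against 2.95% and 2.01% of all genes tested, with a median log2 fold change of 2.61. Without CpG + IFNα replicate 2, none was a DEG that fell. Zbp1, a sensor of Z-form nucleic acids, had 9.21, 5.702 and 3.49 CPM with CpG and 293, 305 and 296 CPM with both, 49.3-fold more (adjusted p = 2.02e-21). The cytosolic RNA sensors rose together. Ddx58, which encodes RIG-I, went from 11.1, 7.13 and 3.99 to 93.3, 96.6 and 99.2 CPM, Ifih1, which encodes MDA5, from 2.46, 2.14 and 2.995 to 44.2, 62.4 and 38.5 CPM, and their regulator Dhx58 from 12.9, 10.7 and 8.99 to 146, 201 and 196 CPM. Eif2ak2, the kinase PKR that halts translation on double-stranded RNA, rose 8.202-fold, from 23.9, 19.96 and 22.5 to 178, 190.4 and 179 CPM. Mavs, the adaptor of RIG-I and MDA5, was not called (38.1, 20.7 and 36.4 CPM with CpG and 25.1, 21.4 and 28.3 CPM with both), but was called lower without CpG replicate 2 (adjusted p = 0.0917). DNA sensing was split. Cgas, which makes the second messenger that activates STING, rose from 0.614, 0.713 and 1.997 to 10.4, 13.8 and 16.4 CPM, whereas Sting1, the gene of STING itself, fell from 26.4, 22.1 and 19.97 to 10.9, 7.93 and 12.3 CPM (log2 fold change -1.16 ± 0.24 SE, adjusted p = 0.000626). Genes of the Ifi200 family, which bind DNA, followed Cgas. Mndal had 89.03, 71.99 and 114 CPM with CpG and 325, 300.5 and 324 CPM with both, and Ifi209 had 39.9, 30.7 and 34.9 CPM with CpG and 215, 206 and 226 CPM with both. Aim2, a member that starts inflammasomes, was not called (31.9, 35.6 and 46.9 CPM with CpG and 33.3, 41.1 and 40.6 CPM with both). Ifi207 had 1, 0 and 0 counts in the CpG libraries and 59, 100 and 69 counts in the CpG + IFNα libraries. These genes are near copies of each other, and the gene bodies of Mndal, Ifi211 and Ifi203 overlap, so that the split of reads between them is uncertain.

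Of the endosomal receptors, Tlr7, which senses single-stranded RNA, rose 8.65-fold, from 4.91, 5.702 and 4.49 to 39.3, 44.8 and 46.3 CPM. Tlr9, the receptor of CpG, rose by less, from 144, 189.6 and 151 to 247, 263 and 263 CPM (1.601-fold, adjusted p = 9.21e-05), with its counts taken over a gene model that the authors had extended by 3 kb. Myd88, the adaptor of both, had 30.1, 20.7 and 27.5 CPM with CpG and 34.9, 39.7 and 35.5 CPM with both (log2 fold change 0.49, adjusted p = 0.0833). Unc93b1, which carries these receptors to endosomes, was not called (log2 fold change 0.18, adjusted p = 0.413). Myd88 was not called without CpG + IFNα replicate 1, CpG + IFNα replicate 2, CpG + IFNα replicate 3, CpG replicate 2 or CpG replicate 3 (adjusted p from 0.109 to 0.322), or with DESeq2 (adjusted p = 0.207).

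Antiviral effectors were the list with the largest median change. Of 34 tested genes, 31 were DEGs that rose, none was lower, and the median log2 fold change was 4.08. The smallest p-value of the whole comparison belonged to Isg20, an exonuclease of viral RNA, which had 13.5, 12.1 and 14.5 CPM with CpG and 526, 461 and 509 CPM with both (36.7-fold, log2 fold change 5.20 ± 0.15 SE, adjusted p = 7.49e-23). Ifitm3, which blocks fusion of viruses in endosomes, rose 57.2-fold, from 11.7, 12.1 and 11.98 to 768, 624 and 669.6 CPM. Rsad2, which encodes viperin, rose 37.1-fold, from 6.14, 4.99 and 4.99 to 187, 204 and 215 CPM. Bst2, which encodes tetherin and holds virions at the cell surface, went from 103, 95.5 and 144 to 1054, 1018 and 1169 CPM, among the largest increases in CPM. Ifit1 and Ifit3, which bind foreign RNA, went from 12.3, 5.702 and 7.49 to 294, 247 and 318 CPM and from 2.46, 0 and 0.499 to 87.3, 101.4 and 115 CPM. Rtp4 rose 67.2-fold, from 3.07, 2.85 and 1.498 to 157, 176 and 163 CPM. The OAS family of sensors of double-stranded RNA held 7 DEGs that rose, and the counts of its near copies Oas1a, Oas1b and Oas1c are uncertain. Oas3 had 2.46, 2.14 and 2.496 CPM with CpG and 148, 135 and 158 CPM with both, and Oasl1 had 25.8, 29.2 and 26.96 CPM with CpG and 403, 408 and 385 CPM with both. Mx1 rose from 3.07, 0.713 and 1.997 to 87.3, 134 and 96.1 CPM, in a strain whose Mx1 gene is known to lack a working protein. Xaf1 and Ifi35 rose 19.7-fold and 5.93-fold.

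Ly6e and Apobec3 were not called. Ly6e had 1237, 1179 and 1193 CPM with CpG and 1192, 1090.2 and 1177 CPM with both, and Apobec3, a cytidine deaminase that acts on retroviral DNA, had 402, 384 and 398 CPM with CpG and 402, 404 and 460.0 CPM with both. Shisa5 and Lgals9 rose, Shisa5 from 115, 102 and 90.4 to 849, 812 and 891 CPM (8.33-fold) and Lgals9 from 122, 148 and 146 to 537, 529 and 538 CPM (3.85-fold). Shisa5 is a protein of the endoplasmic reticulum, and Lgals9 encodes galectin-9, which binds sugars at the cell surface.

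**Figure D3:**
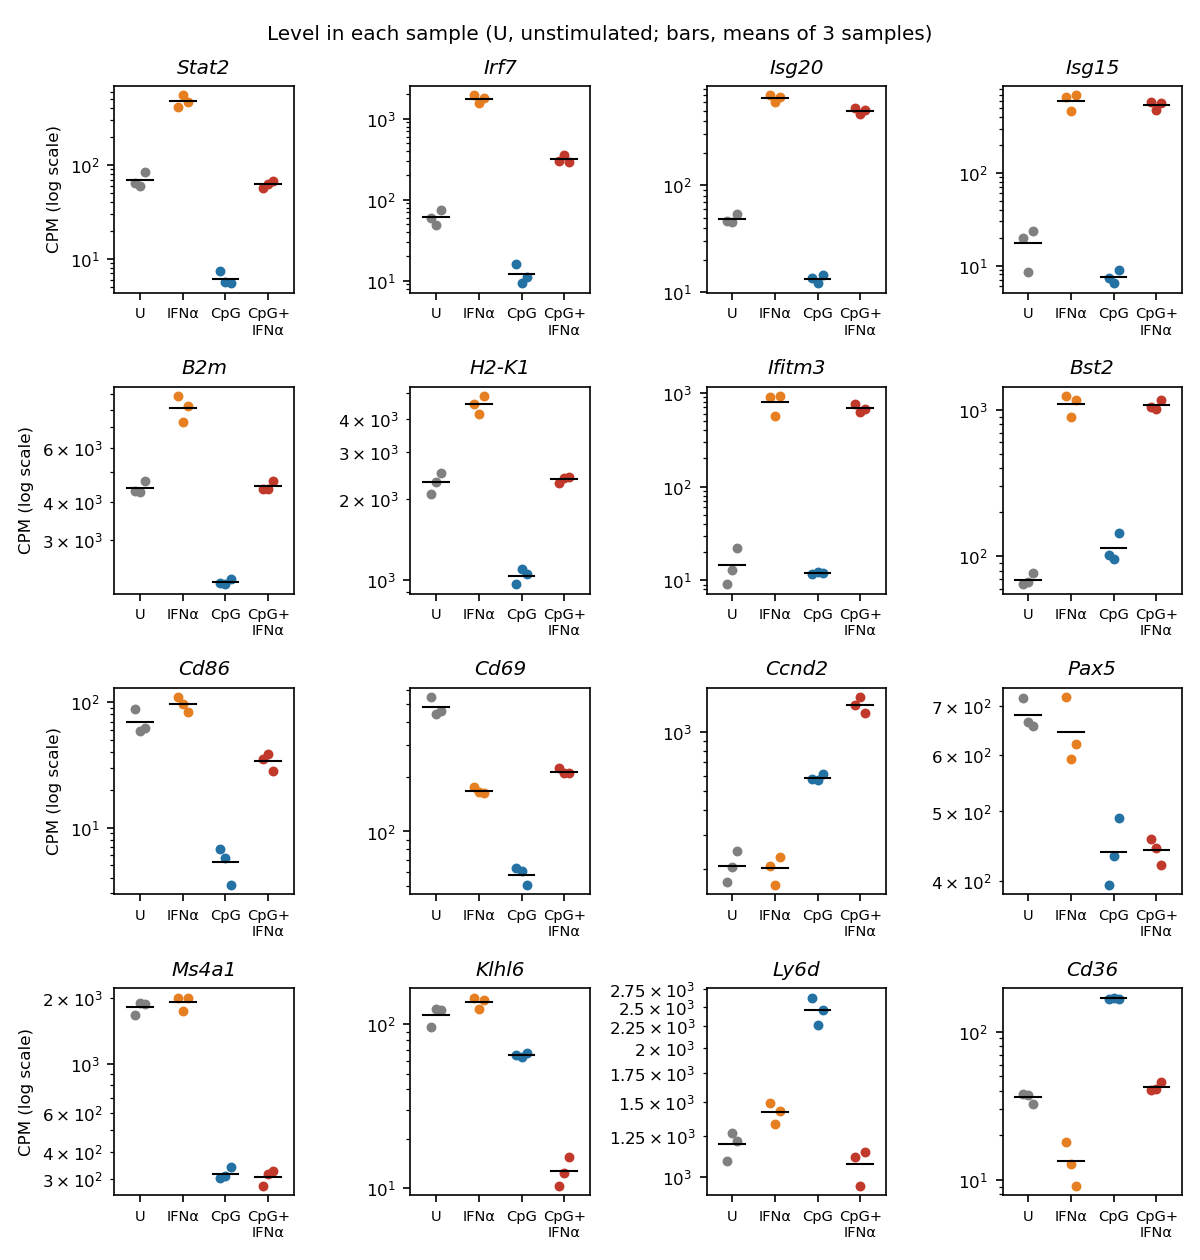
Level of 16 genes in each of the 12 samples (vertical axis, CPM after TMM normalization, log scale), with unstimulated cells, IFNα, CpG and CpG + IFNα side by side (points are samples, bars are group means, 3 samples per group). In the panels of Stat2, Irf7, Isg20, Isg15 and B2m the CpG + IFNα samples lie above the CpG samples, in those of Pax5 and Ms4a1 they overlap, and in those of Klhl6, Ly6d and Cd36 they lie below.

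Interferon-inducible GTPases, which attack the vacuoles of intracellular microbes, rose in 14 of 16 tested members, in 12 of them by more than 2-fold. Of the 12, Iigp1 had 2, 7 and 5 counts and Tgtp1 5, 9 and 4 counts with both and 0 counts in the CpG samples, so that they were at least 1.11-fold and 1.44-fold higher, and Iigp1 was not called with thinned counts (adjusted p = 0.141). The median log2 fold change was 3.19, or 2.28 with members that had 0 counts in all CpG samples set to the limit of detection. Irgm1 went from 17.2, 14.3 and 16.97 to 203, 179 and 189 CPM (11.6-fold) and Ifi47 from 19.6, 19.96 and 24.5 to 267, 221 and 245 CPM (11.3-fold). The GBP subfamily was less uniform. Gbp4 rose 5.67-fold, from 14.7, 8.55 and 9.49 to 54.00, 73.5 and 57.05 CPM, and Gbp2 rose 1.94-fold, from 7.98, 9.98 and 11.5 to 17.5, 21.7 and 17.99 CPM, but Gbp3 fell from 41.1, 33.5 and 38.4 to 22.4, 24.1 and 24.2 CPM (log2 fold change -0.68 ± 0.18 SE, adjusted p = 0.00942). Gbp2 was not called with thinned counts (adjusted p = 0.1 after rounding). Reads of these families may be shared, and gene bodies overlap between Gbp4 and Gbp9, between Irgm2 and Igtp, and between Ifi47 or Tgtp1 and Olfr56. Of 6 tested Schlafen genes, which restrain translation and cell growth, 5 were DEGs that rose. Slfn2 had 88.4, 91.95 and 83.9 CPM with CpG and 331, 297 and 354 CPM with both, and Slfn8 had 25.2, 18.5 and 16.5 CPM with CpG and 187, 234 and 192 CPM with both.

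The machinery that attaches the ubiquitin-like protein ISG15 rose at each of its 3 enzymatic steps. Isg15 itself had 7.37, 6.42 and 8.99 CPM with CpG and 578, 483 and 574 CPM with both, 69.7-fold more (adjusted p = 3.66e-21). Uba7, the activating enzyme, rose from 5.53, 6.42 and 4.99 to 27.3, 40.02 and 35.5 CPM, and Ube2l6, the conjugating enzyme, went from 0, 0 and 2 counts to 15, 14 and 9 counts. Herc6, the ligase in mice, went from 4.298, 4.99 and 5.49 to 55.6, 61.8 and 72.98 CPM (12.6-fold). Of the 8 genes of this list 7 were DEGs that rose, and the eighth, Ube2e1, was not called (7.98, 5.702 and 6.49 CPM with CpG and 6.0, 6.21 and 7.19 CPM with both).

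Of 14 genes of the PARP family and DTX3L, 5 were DEGs that rose (2.95% of all genes tested were), and the median log2 fold change was 0.53. Parp14 rose 12.4-fold, from 11.7, 9.98 and 6.49 to 105, 115 and 123 CPM. Parp9 and its partner Dtx3l, which share a promoter region and overlap each other, went from 5.53, 9.27 and 10.5 to 109.6, 117 and 104 CPM and from 28.2, 23.5 and 22.5 to 125, 97.98 and 118 CPM. Parp12 had 0 counts in all 3 CpG libraries and 33, 37 and 34 counts in the CpG + IFNα libraries, which is at least 8.81-fold higher against a limit of 3 counts per library. Parp1, the DNA damage enzyme that gives the family its name, fell from 189, 172 and 207 to 156, 129 and 118 CPM (1.42-fold, adjusted p = 0.0029). The TRIM family of ubiquitin ligases held 11 DEGs that rose among 13 tested genes, with a median log2 fold change of 2.07. Trim30a, whose promoter holds the motif as that of Trim30d does, had 63.9, 55.6 and 68.4 CPM with CpG and 709.7, 758 and 678 CPM with both (11.3-fold), and Trim30d had 28.2, 21.4 and 21.97 CPM with CpG and 254, 311 and 284 CPM with both. Pml, which organizes nuclear bodies and is named for its small interaction p-value, rose from 25.8, 29.2 and 27.96 to 189, 189 and 206 CPM (7.02-fold).

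Genes of antigen presentation by MHC class I rose, and more class II genes fell than rose. Of 24 tested class I genes, 14 were DEGs that rose and 20 were higher at any fold, none was lower, and the median log2 fold change was 1.03. B2m, the common light chain of class I molecules, had 2169, 2157 and 2238 CPM with CpG and 4408, 4395 and 4671 CPM with both (2.05-fold), one of the largest increases in CPM. H2-K1 rose 2.29-fold, from 966, 1096 and 1058 to 2293, 2409.8 and 2430.3 CPM, and H2-D1 rose 2.03-fold, from 728, 759 and 705 to 1463, 1421 and 1556 CPM, with reads of these related heavy chain genes possibly shared. The peptide supply rose too. Tap1, a subunit of the peptide transporter, went from 77.97, 89.8 and 75.9 to 299, 383 and 317 CPM, Psmb9, a subunit of the immunoproteasome, from 33.8, 44.2 and 43.9 to 157, 170.4 and 187 CPM, and Tapbp, which encodes tapasin, from 149, 134 and 154 to 344, 361 and 324 CPM, where Tap1 and Psmb9 overlap on opposite strands. Nlrc5, the transactivator of class I genes, which overlaps an antisense gene that also rose, rose 5.11-fold, from 16.6, 19.96 and 19.5 to 84.5, 105 and 96.1 CPM. The general chaperones of the endoplasmic reticulum Calr, Canx and Pdia3 were not called (log2 fold changes -0.16, 0.12 and -0.09).

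Of 15 tested class II genes, 8 were lower and 1 was higher at any fold, against 8.83% and 6.54% of all genes tested, and 2 were DEGs that fell (2.01% of all genes). H2-DMa and H2-DMb1 form the peptide editor of class II molecules. H2-DMa fell from 16.6, 17.1 and 15.5 to 7.09, 10.00 and 4.11 CPM, and H2-DMb1 from 8.596, 9.98 and 8.49 to 4.91, 4.14 and 3.597 CPM, which was not called with thinned counts (adjusted p = 0.507). The chains H2-Ab1 and H2-Aa fell by less, H2-Ab1 from 191, 147 and 155 to 117, 103 and 99.2 CPM (adjusted p = 0.00128) and H2-Aa from 150.4, 147 and 141 to 113, 106 and 89.4 CPM (adjusted p = 0.00937). Ciita, the transactivator of class II genes, had 31.3, 20.7 and 16.97 CPM with CpG and 10.9, 17.6 and 12.8 CPM with both, with overlapping groups, although the test called it lower (adjusted p = 0.0678). Ctss, which trims the invariant chain, was the member that rose, from 231, 192 and 212 to 297, 307 and 324 CPM. The median log2 fold change of the list was -0.51. Ciita was not called without CpG + IFNα replicate 1, CpG + IFNα replicate 3 or CpG replicate 1 (adjusted p from 0.154 to 0.448).

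Chemokine and cytokine genes rose in part. Of 19 tested genes 7 were DEGs that rose (2.95% of all genes tested were) and none was a DEG that fell (2.01%). Without CpG + IFNα replicate 3 or CpG replicate 3, 1 was a DEG that fell. Cxcl10, a chemokine for T cells with the motif in its promoter, had 3.07, 2.14 and 1.498 CPM with CpG and 319, 384 and 319.7 CPM with both, the largest fold change among genes of at least 20 CPM (151-fold, log2 fold change 7.24 ± 0.24 SE). Ccl4 rose from 67.5, 59.2 and 45.9 to 203, 189 and 190.2 CPM (3.398-fold), whereas Ccl3, which lies in the same chemokine cluster, was not called (327, 308 and 248 CPM with CpG and 377, 314 and 295 CPM with both). Il6, which supports PCs and T cells, rose with IFNα, from 179.9, 109 and 151 to 397, 306 and 331 CPM (2.33-fold, adjusted p = 2.29e-08). Csf1, the growth factor of macrophages, had 0, 1 and 2 counts in the CpG libraries and 50, 78 and 43 counts in the CpG + IFNα libraries. Tnfsf10, which encodes TRAIL, had 0, 0 and 1 counts and 18, 18 and 12 counts. Il2ra, a chain of the IL-2 receptor, rose from 16.6, 21.4 and 22.96 to 55.1, 69.3 and 56.5 CPM. Il10, made by regulatory B cells, Il12a and Tnf were not called, with 11.7, 9.27 and 8.99 CPM with CpG and 12.5, 5.86 and 12.3 CPM with both for Il10 and 35.6, 27.1 and 32.5 CPM with CpG and 43.6, 30.7 and 51.9 CPM with both for Tnf, which was called higher without CpG + IFNα replicate 2 (adjusted p = 0.0746).

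Among 20 tested genes of costimulation and activation at the surface, 4 were DEGs that rose (2.95% of all genes tested were) and none was a DEG that fell (2.01%). In 4 alternatives 1 was a DEG that fell. At any fold 8 were higher and 4 lower, against 6.54% and 8.83% of all genes tested. Cd86, a ligand that costimulates T cells, had 6.75, 5.702 and 3.49 CPM with CpG and 34.9, 38.3 and 28.3 CPM with both (6.51-fold, adjusted p = 1.33e-09). Cd69, an early activation marker that keeps lymphocytes in tissue, rose 3.68-fold, from 62.6, 60.6 and 50.9 to 222, 208 and 208 CPM. Cd200, an inhibitory ligand, rose 3.25-fold, from 12.9, 10.7 and 10.98 to 33.8, 45.2 and 31.9 CPM. Cd40, the receptor of T cell help, went from 141, 118 and 117 to 212, 193 and 241 CPM (1.71-fold), and Cd274, which encodes PD-L1, from 18.4, 27.1 and 23.96 to 35.5, 43.8 and 46.8 CPM (1.83-fold), a call lost with thinned counts (adjusted p = 0.103). The direction was not shared by all activation genes. Cd83 fell from 291, 209 and 222 to 184, 159 and 185 CPM (adjusted p = 0.0582), and Cd24a from 279, 245 and 255 to 142, 119 and 132 CPM (adjusted p = 2.18e-07), whereas Cd80, the other ligand of the Cd86 receptors, was not called (1.84, 10.7 and 4.49 CPM with CpG and 5.45, 8.97 and 6.68 CPM with both). Tbx21, which encodes T-bet and was picked after its values were seen, had 5.53, 5.702 and 5.49 CPM with CpG and 21.8, 34.5 and 30.3 CPM with both (log2 fold change 2.38 ± 0.29 SE, adjusted p = 9.51e-08). Cd83 was not called without CpG + IFNα replicate 2 or CpG replicate 1 (adjusted p from 0.232 to 0.337), or with DESeq2 (adjusted p = 0.178).

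**Figure D4:**
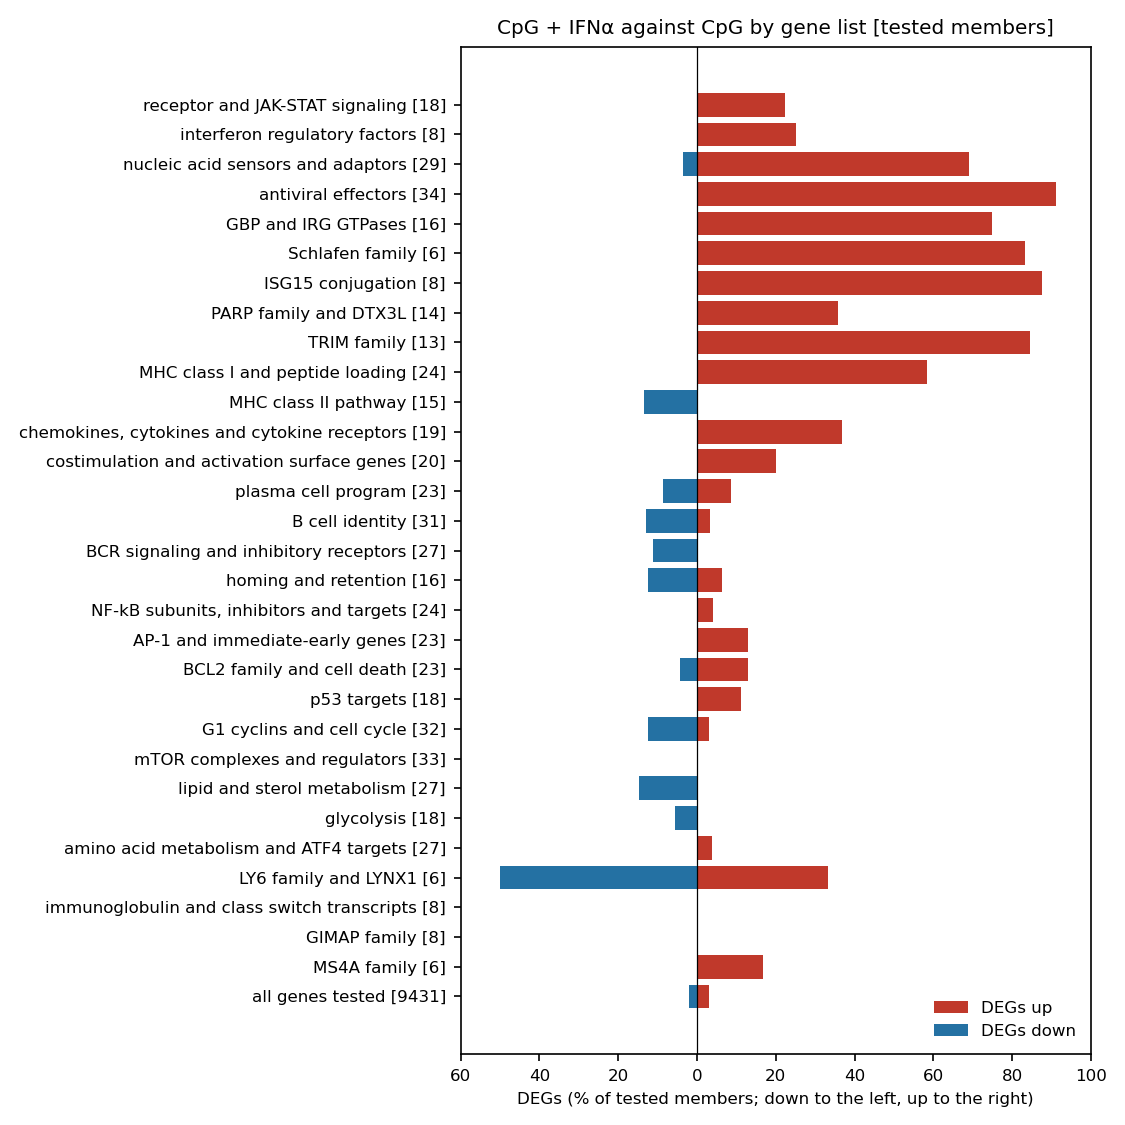
Share of the tested members of each gene list that were DEGs, as a percentage of tested members (horizontal axis, increases to the right and decreases to the left), with the number of tested members in brackets and the share among all 9431 genes tested at the foot (2.95% and 2.01%). The antiviral effectors reach 31 of 34 members upward, and 4 of 31 B cell identity genes lie to the left against 1 to the right.

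Genes of B cell identity were lower more often than higher. Of 31 tested genes, 18 were lower and 1 was higher at any fold, against 8.83% and 6.54% of all genes tested. DEGs that fell were 4 of them (2.01% of all genes), and the median log2 fold change was -0.39. Pax5, the factor that maintains B cell identity, was not called and its groups overlapped (395, 433 and 490.2 CPM with CpG and 458, 445 and 421 CPM with both, adjusted p = 0.99). The same held for Ms4a1, which encodes the surface marker CD20 (303, 310.1 and 339 CPM with CpG and 280.4, 317 and 327 CPM with both). The genes that fell were others. Fcrla, an Fc receptor-like protein of B cells, went from 77.4, 70.6 and 69.4 to 20.2, 25.5 and 35.5 CPM (log2 fold change -1.42 ± 0.17 SE). Fcer2a, which encodes CD23, one of the markers of the sort, fell from 28.2, 17.8 and 17.97 to 10.4, 6.900 and 7.19 CPM, and Cr2, which encodes CD21, another of them, from 28.9, 24.2 and 45.4 to 9.27, 11.7 and 21.1 CPM. Klf2, which keeps mature B cells quiescent and in circulation, fell from 33.2, 37.1 and 29.95 to 13.1, 15.9 and 15.4 CPM. The transcription factors Ikzf1, Tcf3 and Ets1 fell 1.99-fold, 1.85-fold and 1.61-fold, and the antigen receptor chains Cd79a and Cd79b fell 1.73-fold and 1.76-fold. Bach2, which holds back PC genes, fell from 93.3, 120.5 and 112 to 52.4, 84.2 and 85.8 CPM (adjusted p = 0.0121). The member that rose, Id2, an inhibitor of E proteins such as that of Tcf3, had 9.21, 22.1 and 10.98 CPM with CpG and 18.00, 38.6 and 22.6 CPM with both, with overlapping groups (adjusted p = 0.0353). Bach2 was not called without CpG + IFNα replicate 1 (adjusted p = 0.13), nor was Id2 without CpG + IFNα replicate 2, CpG replicate 1 or CpG replicate 3 (adjusted p from 0.179 to 0.405), or with DESeq2 or with thinned counts (adjusted p from 0.144 to 0.247).

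Of 27 tested genes of signaling from the B cell receptor (BCR), 10 were lower and 2 higher at any fold, against 8.83% and 6.54% of all genes tested. DEGs that fell were 3 of them (2.01% of all genes). Klhl6, a ubiquitin ligase adaptor that mature B cells need for BCR responses, had the lowest p-value among the DEGs of this list, with 64.5, 63.4 and 66.4 CPM with CpG and 10.4, 12.4 and 15.4 CPM with both (5.07-fold lower, adjusted p = 1.43e-12). Bank1, a scaffold of BCR signaling, fell from 165, 178 and 195 to 80.7, 88.7 and 90.5 CPM, and Rgs2, a brake on G protein signaling, from 12.3, 7.13 and 7.49 to 2.73, 4.83 and 3.597 CPM. The kinases Syk and Btk fell by less, Syk from 166, 154 and 204 to 96.5, 94.2 and 108 CPM and Btk from 48.5, 61.3 and 62.9 to 39.3, 28.98 and 42.7 CPM. Pik3cg, a PI3 kinase subunit outside the list that has one of the largest decreases, went from 17.8, 21.4 and 29.5 to 6.0, 6.900 and 5.65 CPM (3.67-fold lower). Among 16 tested genes of homing, S1pr4, a receptor of the lipid S1P, fell from 7.37, 5.702 and 7.99 to 1.64, 4.14 and 2.57 CPM and Cnr2, which places B cells in the spleen, from 6.14, 6.42 and 4.99 to 2.18, 3.105 and 1.54 CPM. Cxcr4, which draws PCs to bone marrow, fell from 22.1, 15.7 and 16.97 to 9.27, 10.3 and 11.8 CPM (adjusted p = 0.0418), and Ccr7 was not called (1372, 1362 and 1149.7 CPM with CpG and 1701, 1508 and 1469 CPM with both), but was called higher with no filter on low counts or with the 6 samples alone (adjusted p from 0.0335 to 0.0767). Several of these calls depended on single samples or on the setting, and the homing list held 0 to 1 DEGs that fell, against 2, under 8 alternatives. Rgs2 was not called without CpG + IFNα replicate 1 or CpG replicate 1 (adjusted p from 0.125 to 0.246), or with thinned counts (adjusted p = 0.158), Cnr2 not without CpG + IFNα replicate 3, CpG replicate 1 or CpG replicate 2 (adjusted p from 0.103 to 0.133), or with no filter on low counts (adjusted p = 0.103), S1pr4 not without CpG + IFNα replicate 1, CpG replicate 1 or CpG replicate 3 (adjusted p from 0.105 to 0.173), or with thinned counts (adjusted p = 0.143) and Cxcr4 not without CpG + IFNα replicate 1, CpG + IFNα replicate 2 or CpG replicate 1 (adjusted p from 0.112 to 0.206), or with thinned counts (adjusted p = 0.235).

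Of 23 tested genes of the PC program, 2 were DEGs that rose and 2 DEGs that fell (2.95% and 2.01% of all genes tested), and 3 were higher and 6 lower at any fold (6.54% and 8.83%). The 2 that fell lay just past 2-fold, so that the count was 0 with no filter on low counts or without rRNA and mitochondrial genes, and 1 with DESeq2, its size factors or the 6 samples alone, or without CpG replicate 3. Zbtb32, a repressor expressed in activated B cells and PCs, had 4.91, 2.14 and 4.99 CPM with CpG and 49.1, 55.2 and 70.9 CPM with both (13.8-fold, adjusted p = 1.95e-12). Slamf7, a surface receptor of activated B cells and PCs, rose from 60.8, 68.4 and 65.9 to 160.4, 179 and 135 CPM (2.44-fold). In the other direction, Mzb1, a chaperone of antibody assembly, fell from 479, 509.7 and 506 to 245, 244 and 250.8 CPM (2.02-fold, adjusted p = 1.97e-08), and Pou2af1, a coactivator of immunoglobulin genes, from 113, 114 and 139 to 58.9, 59.3 and 61.2 CPM (2.05-fold). Xbp1, the factor of the secretory apparatus, was not called, with overlapping values of 76.7, 49.2 and 73.9 CPM with CpG and 43.6, 40.4 and 68.9 CPM with both. Prdm1, which encodes Blimp1, and Jchain, which joins IgM subunits, had at most 8 and 6 counts in any of the 6 samples and were not tested. Sdc1, which encodes the PC marker CD138, had 2, 3 and 4 counts with CpG and 3, 2 and 2 counts with both. Ighm was not called (4339, 4402 and 4165 CPM with CpG and 3714, 3867 and 3843 CPM with both). The lambda light chain gene Iglc2, whose reads may be shared with Iglc1 and Iglc3, fell from 459, 480.4 and 463 to 281, 264 and 302 CPM. Transcripts of 2 switched isotypes rose less than 2-fold, Ighg2c from 17.8, 15.7 and 15.5 to 21.8, 32.4 and 35.97 CPM (adjusted p = 0.00932) and Ighg3 from 9.82, 14.3 and 9.98 to 19.1, 25.5 and 15.9 CPM (adjusted p = 0.0309). Ighg2c was not called with thinned counts (adjusted p = 0.146), nor was Ighg3 without CpG + IFNα replicate 2, CpG replicate 1 or CpG replicate 3 (adjusted p from 0.119 to 0.265), or with DESeq2 or with thinned counts (adjusted p from 0.147 to 0.371), and Xbp1 was called lower without CpG + IFNα replicate 3 or CpG replicate 2 (adjusted p from 0.00638 to 0.0291), or with the replicate block (adjusted p = 0.0659).

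Of 24 tested genes of the NF-κB list 1 was a DEG that rose (2.95% of all genes did), 4 were higher at any fold (6.54% of all genes were) and none was lower, with a median log2 fold change of 0.13. The DEG was Cflar, which encodes the caspase-8 inhibitor c-FLIP and went from 107, 128 and 108 to 242, 286 and 234 CPM (2.24-fold). Nfkbia, the inhibitor that NF-κB induces first, was not called (756, 733 and 716 CPM with CpG and 722, 665 and 666 CPM with both). Of 23 tested AP-1 and immediate-early genes 3 were DEGs that rose (2.95% of all genes tested were). Atf3, a stress-induced factor, had 33.8, 26.4 and 37.9 CPM with CpG and 82.9, 84.2 and 80.7 CPM with both, Fosl1 rose from 4.91, 6.42 and 5.99 to 18.5, 22.8 and 16.96 CPM, and Dusp5, which inactivates ERK, from 1.23, 2.85 and 5.49 to 9.82, 11.04 and 8.22 CPM. Atf3 was not called with DESeq2 (adjusted p = 0.283), nor was Dusp5 without CpG replicate 1 (adjusted p = 0.131), or with thinned counts (adjusted p = 0.233).

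Of 23 tested genes of cell death, 9 were higher and 5 lower at any fold, against 6.54% and 8.83% of all genes tested. Bcl2, which protects cells from death, rose from 173, 193 and 192 to 258, 265 and 239 CPM (1.37-fold), and Bcl2l11, which encodes its antagonist BIM, fell from 121, 131 and 111 to 53.5, 79.3 and 56.5 CPM (1.88-fold). Bmf, another BH3-only killer, fell from 5, 5 and 11 counts to 0, 4 and 2 counts. Casp4, which encodes caspase-11, a protease of inflammatory death, rose from 21.5, 17.8 and 19.97 to 56.7, 72.8 and 68.4 CPM, and Casp8, an initiator of apoptosis, from 62.6, 44.9 and 61.4 to 92.2, 89.01 and 102 CPM. Mlkl, which carries out necroptosis, had 1, 1 and 2 counts with CpG and 15, 40 and 26 counts with both. Daxx rose 3.54-fold, from 47.9, 42.8 and 58.4 to 188, 159 and 189 CPM. Of 18 tested targets of p53, 7 were higher and none lower at any fold, against 6.54% and 8.83% of all genes tested. Cdkn1a, the cell cycle inhibitor p21, went from 75.5, 135 and 95.4 to 205, 294 and 268 CPM (2.54-fold), and Tnfrsf10b, a TRAIL receptor, from 11.7, 10.7 and 3.49 to 19.1, 25.9 and 24.7 CPM. Bmf was not called without CpG replicate 3 (adjusted p = 0.148).

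In the cell cycle list of 32 tested genes, 10 were lower and 2 higher at any fold, against 8.83% and 6.54% of all genes tested. DEGs that fell were 4 (2.01% of all genes tested were), but 1 with thinned counts or the 6 samples alone. Ccnd2, the D-type cyclin that lets B cells enter the cycle, was the DEG that rose, from 575, 568 and 612 to 1374, 1509 and 1249.9 CPM (2.36-fold, adjusted p = 8.38e-10). Mki67, a marker of cycling cells, was spread widely among the CpG samples, at 6.75, 19.96 and 35.4 CPM, and had 5.45, 9.31 and 7.71 CPM with both, so that the groups overlapped although the test called it (adjusted p = 0.00594). Mxd4, an antagonist of MYC, fell from 6.75, 3.56 and 7.99 to 1.64, 1.72 and 2.06 CPM, and Myc itself was not called (572, 610.2 and 520.2 CPM with CpG and 755, 647 and 725 CPM with both). Myc was called higher without CpG + IFNα replicate 2 (adjusted p = 0.0945), or with DESeq2 size factors, with library totals, with no filter on low counts, with a mean of at least 10 CPM, with the replicate block, without rRNA and mitochondrial genes or with the 6 samples alone (adjusted p from 0.0107 to 0.0961). Pim2, a survival kinase, fell from 465, 436 and 483 to 221, 205 and 245 CPM (2.07-fold, adjusted p = 6.39e-09). Mki67 was not called without CpG replicate 3 (adjusted p = 0.317).

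Of 27 tested genes of lipid and sterol metabolism, 4 were DEGs that fell (2.01% of all genes tested were). At any fold 8 were lower (8.83% of all genes were) and none was higher (6.54%). Those lower at any fold were 5 with DESeq2 size factors and 4 without rRNA and mitochondrial genes. Cd36, a fatty acid transporter, had the smallest p-value of all DEGs that fell, with 167, 169.6 and 166 CPM with CpG and 40.4, 41.1 and 45.7 CPM with both (3.95-fold lower, log2 fold change -1.98 ± 0.13 SE, adjusted p = 4.82e-14). Scd1 and Scd2, which make monounsaturated fatty acids, fell from 77.97, 64.2 and 90.9 to 30.00, 29.3 and 42.7 CPM and from 15.96, 18.5 and 24.5 to 3.27, 5.86 and 5.65 CPM, and Mvd, an enzyme of sterol synthesis, from 22.7, 19.2 and 21.5 to 6.0, 6.21 and 11.3 CPM. Of 33 tested genes of the mTOR complexes and their regulators none was a DEG, 2 were higher and 5 lower at any fold, against 6.54% and 8.83% of all genes tested, and Mtor had 30.1, 26.4 and 37.9 CPM with CpG and 33.3, 32.4 and 41.6 CPM with both. Ddit4, an inhibitor of mTORC1, rose from 11.7, 8.55 and 10.98 to 21.3, 24.1 and 16.4 CPM (1.98-fold, adjusted p = 0.00332), and passed 2-fold under 9 alternatives, DESeq2 among them, so that the list then held 1 DEG. Of 27 tested genes of amino acid metabolism and ATF4 targets, 7 were higher (6.54% of all genes were) and none lower (8.83%) at any fold, and Atf4 rose from 629, 594 and 586 to 841, 861 and 777 CPM (1.37-fold). Of 18 tested genes of glycolysis 3 were lower (8.83% of all genes were) and none higher (6.54%), and Tpi1 fell from 120.3, 135 and 119.8 to 66.5, 64.9 and 71.4 CPM (1.85-fold).

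The LY6 family of small surface proteins split between its members. Ly6a, which encodes Sca-1, rose 10.1-fold, from 49.7, 68.4 and 51.4 to 535, 559 and 612 CPM, and Ly6c2 rose from 6.14, 2.14 and 1.997 to 22.9, 13.8 and 32.9 CPM. Ly6d had the largest decrease in CPM among DEGs without overlap, from 2623, 2265 and 2461 to 1113, 957 and 1146 CPM (2.29-fold lower, adjusted p = 2.72e-10). Ly6k fell from 90.3, 64.2 and 54.4 to 31.6, 26.6 and 23.6 CPM and Lynx1 from 133, 151 and 135 to 50.2, 53.1 and 47.8 CPM. The MS4A family, relatives of CD20, also moved in different directions. Ms4a4b rose 5.64-fold, from 12.3, 16.4 and 10.5 to 68.2, 74.2 and 74.5 CPM, and Ms4a4c 1.88-fold, from 404, 399.9 and 414 to 717, 769 and 805 CPM, whereas Ms4a6b fell from 275, 279 and 301 to 179, 221 and 231 CPM and Ms4a6c from 173, 162 and 216 to 121, 118 and 160.3 CPM. None of the 8 GIMAP genes, small GTPases of lymphocyte survival, was called at any fold. Ms4a6c was not called without CpG + IFNα replicate 1, CpG + IFNα replicate 2 or CpG replicate 3 (adjusted p from 0.111 to 0.234), or with DESeq2 (adjusted p = 0.133).

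Other genes that fell with small p-values or large folds belong to no list. Lbh, a transcriptional regulator, fell 3.64-fold, from 114, 106 and 125 to 36.5, 28.98 and 30.3 CPM. Hdac9, a histone deacetylase, fell from 35.00, 42.1 and 43.9 to 10.4, 9.31 and 8.74 CPM, and Coro1a, an actin regulator of lymphocytes, from 266, 242 and 256 to 122, 123 and 128 CPM. S100a10, a partner of annexin A2, went from 109, 114 and 121 to 44.2, 46.9 and 60.6 CPM, and Hvcn1, the proton channel of B cells, from 53.4, 50.6 and 48.4 to 12.00, 21.7 and 22.6 CPM. Tnip3 and Cebpd, which averaged 1.596 and 1.91 CPM in unstimulated cells, fell from 23.9, 18.5 and 30.95 to 3.27, 4.14 and 7.71 CPM and from 56.5, 39.9 and 71.4 to 15.3, 12.4 and 26.2 CPM. Among genes that rose outside the lists, Phf11a went from 7.98, 5.702 and 8.99 to 205, 169 and 169.6 CPM (23.1-fold) and the processed pseudogene Gm6545 from 3, 3 and 15 to 443, 805 and 582 counts. Reads of a pseudogene may come from its parent gene, so its count is uncertain.

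Mpeg1, Plac8 and Cox6a2, listed as markers of other cells, also rose. Mpeg1, a pore-forming protein best known in macrophages, had 6.75, 9.27 and 6.99 CPM with CpG and 133, 121 and 111 CPM with both, and rose with IFNα alone as well, from 15.7 to 235 CPM on average. Of the 12 myeloid markers, 3 passed the filter, 8 had at most 4 counts in any of the 6 samples, with Lyz2, Cd14, S100a8 and Fcgr1 at 0, and S100a9 was not analysed here. The myeloid markers summed to 87.9 to 107 CPM with CpG and 194 to 204 CPM with both, Mpeg1 included. Plac8, listed with marginal zone B cells, rose from 55.3, 39.2 and 49.4 to 266, 296 and 300.1 CPM, whereas the other members of that list that were called, Cr2, Dtx1 and Mzb1, fell. Of 7 erythroid markers 4 passed the filter, and none was called. They summed to 59.6, 18.5 and 4.99 CPM with CpG and 72.0, 21.7 and 5.65 CPM with both, highest in replicate 1 and lowest in replicate 3, as also in the IFNα and unstimulated groups (335, 85.1 and 15.3 CPM, and 345, 156 and 57.4 CPM). Erythroid RNA thus moved with the replicate number. Cox6a2, listed with plasmacytoid dendritic cells, had 16.6, 5.702 and 6.49 CPM with CpG and 19.1, 15.5 and 20.6 CPM with both, with overlapping groups (log2 fold change 0.92 ± 0.32 SE, adjusted p = 0.0565), and was not called without CpG + IFNα replicate 1, CpG + IFNα replicate 3, CpG replicate 2 or CpG replicate 3 (adjusted p from 0.125 to 0.306), or with DESeq2 or with thinned counts (adjusted p from 0.212 to 0.213). With Pacsin1, the other tested marker of that list, it summed to 7.49 to 17.8 CPM with CpG and 16.2 to 21.6 CPM with both, while Siglech and Klk1 were at 0. That list held 1 DEG that rose without CpG + IFNα replicate 2 or CpG replicate 1, against 0. The part of other cells in any result was not tested beyond these counts.

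The same IFNα effect was measured without CpG, in 3 IFNα samples against 3 unstimulated samples that share no sample with the comparison above. There 430 genes rose (4.56%) and 384 fell (4.07%) by more than 2-fold. Of the 278 genes that rose in the presence of CpG, 189 also rose without it, which is 68% of the one list and 44% of the other. Of the 190 that fell in the presence of CpG, 28 also fell without it, 14.7% and 7.29% of the lists. The difference between both effects of IFNα, the one in CpG-treated cells minus the one in cells without CpG (interaction), was above 0 for 551 genes (5.84%) and below 0 for 715 (7.58%) at an adjusted p under 0.1. Among the 278 genes that rose, it was above 0 for 93 and below 0 for 20, and among the 190 that fell it was below 0 for 86 and above 0 for 4. The count of 20 was 13 without CpG replicate 1, and the count of 86 was 50 without Unstimulated replicate 3. Levels can be set side by side as a description. Bst2 had 64.6, 66.3 and 76.8 CPM in unstimulated cells and 1242, 898 and 1174 CPM with IFNα alone, and its level with CpG + IFNα lay within the range of the IFNα samples. This did not hold for the antiviral effectors as a list. Its tested members summed to 29030, 24500 and 28240 CPM with IFNα alone and to 8631, 8404 and 9043 CPM with CpG + IFNα. They summed to 7616, 8279 and 8049 CPM in unstimulated cells and to 2386, 2275 and 2351 CPM with CpG. Of 34 tested antiviral effectors, 7 had an interaction above 0 and 5 below 0, beside 93 and 20 of the 278 genes that rose.

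**Figure D5:**
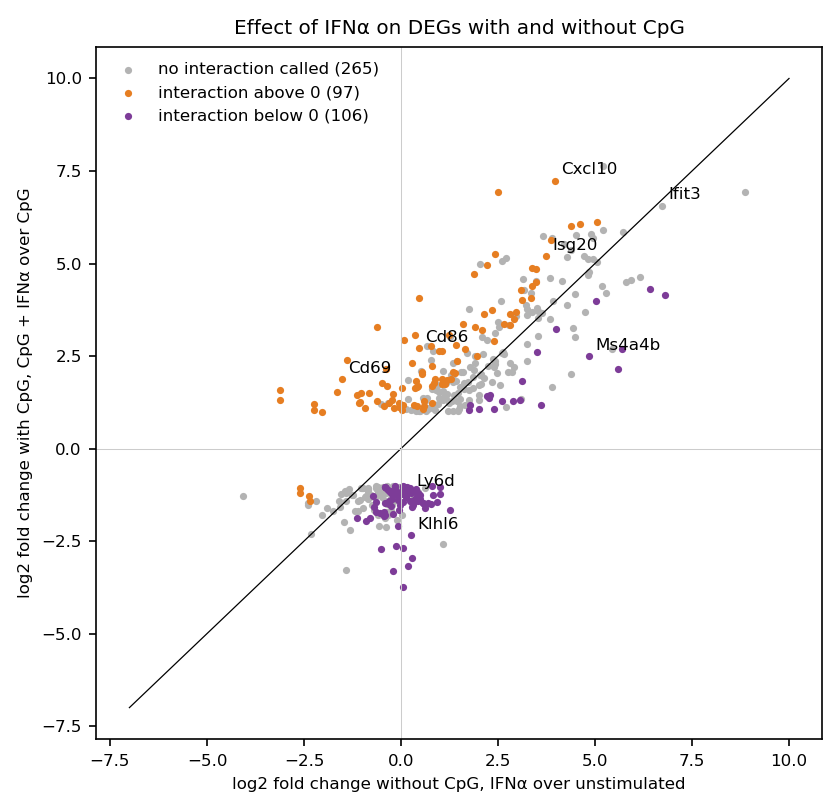
Log2 fold change of IFNα without CpG (IFNα over unstimulated, horizontal axis) and with CpG (CpG + IFNα over CpG, vertical axis) for the DEGs of the comparison with CpG (278 up, 190 down), with the diagonal of equal effects. Genes with an interaction above 0 (orange), below 0 (purple) and without a called interaction (grey) are separated, and Cd69 and Cd86 lie far above the diagonal while Ms4a4b lies below it.

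The genes with an interaction above 0 included activation and cytokine genes. Cd69 went from 548, 442 and 456 CPM in unstimulated cells to 176, 165 and 162 CPM with IFNα alone, a fall, and from 62.6, 60.6 and 50.9 to 222, 208 and 208 CPM when CpG was present, a rise (interaction 3.41 on the log2 scale, adjusted p = 9.5e-16). Cd86 had 87.4, 58.8 and 62.7 CPM unstimulated and 110.0, 96.7 and 83.9 CPM with IFNα alone, beside the rise with CpG given above (interaction 2.24). Il6 had averages of 5.83 and 3.105 CPM without CpG, against 147 CPM with CpG alone (interaction 2.30, a call lost without Unstimulated replicate 3). Irf4 fell without CpG, from 257, 136 and 170.3 to 86.8, 82.7 and 95.4 CPM, and rose with it (interaction 1.58, adjusted p = 5.06e-06). Shisa5 rose in both settings, by a log2 fold change of 1.22 without CpG and 3.06 with it (interaction 1.83). Its averages were 2145 CPM unstimulated and 5012 CPM with IFNα alone, against 102 CPM with CpG and 851 CPM with both. The larger fold change thus started from a lower level and ended below that with IFNα alone. Trim12a rose with CpG, from 22.1, 18.5 and 21.5 to 90.5, 121 and 97.6 CPM, and was not called without it (log2 fold change 0.27, adjusted p = 0.17, interaction 2.04). Without CpG, Trim12a averaged 144 CPM unstimulated and 173 CPM with IFNα. Ptk2b, a kinase related to FAK, rose from 46.05, 50.6 and 35.9 to 106, 118 and 103 CPM with CpG and had averages of 266 and 227 CPM without it (interaction 1.56).

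In the other direction, Ms4a4b rose by a log2 fold change of 4.84 without CpG and 2.50 with it (interaction -2.34), and Nt5c3, a nucleotidase, by 3.07 and 1.32 (interaction -1.75). Ms4a6b and Ms4a6c rose without CpG, by 2.14 and 1.90, and fell with it (interactions -2.58 and -2.38). Of the genes that fell, Klhl6 had 95.5, 124 and 123 CPM unstimulated and 145, 124 and 140.4 CPM with IFNα alone, so that the decrease was called only in the presence of CpG (interaction -2.60, adjusted p = 3.78e-10). Mzb1 rose without CpG, from 265 to 459.6 CPM on average, and fell with it (interaction -1.81). Ly6d was not called without CpG (log2 fold change 0.25, adjusted p = 0.123, interaction -1.44).

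These differences cannot be told apart from an effect of culture, since no culture time is stated for unstimulated cells. Immediate-early genes are known to rise when cells are handled. Jun had 1026, 556 and 1054 CPM unstimulated and 57.5, 54.1 and 35.9 CPM with IFNα, against 115, 133 and 128 CPM with CpG and 154, 184 and 178 CPM with both. Of 23 tested AP-1 and immediate-early genes 17 had an interaction above 0, against 5.84% of all genes tested. An effect of handling was not tested. The CpG and CpG + IFNα cells were both stimulated for 12 h.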

How the data were processed

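FO B cell RNA was measured by BRB-seq, a bulk method that tags each sample with a barcode and each molecule with a UMI and sequences transcript 3′ ends. The authors trimmed reads with Trim Galore 0.6.7, aligned them to GRCm38 with HISAT2 2.2.1, assigned them to genes with featureCounts 2.0.1 and counted UMIs with UMI-tools 1.1.2. They extended Tlr9 by 3 kb, and the strand setting is not given in the sources used here. The deposited values are raw UMI counts per gene, without normalization. No values were taken from the barcode list.

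Counts were analysed in R 4.3.3 with edgeR 4.0.16 (TMM, filterByExpr, quasi-likelihood test). All 12 samples in 4 groups shared 1 estimate of the spread (8 residual degrees of freedom), and 9431 of 22561 genes were kept. P-values were adjusted by the Benjamini-Hochberg method over all genes tested. A DEG was a gene that changed more than 2-fold with its adjusted p below 0.1, and an interaction was called at an adjusted p under 0.1. Errors are SE of the log2 fold change, and limits of 3 counts cover counting error only. The scripts were tested on simulated data. Genes were named from lists by role, and among DEGs without overlap by smallest p (15 per direction), largest fold at 20 CPM or more (10), largest CPM difference (10) and, among all DEGs, smallest interaction p (8). The comparison and the lists were chosen with earlier results of these data known. Alternatives were other scaling (DESeq2 size factors, library totals), filters, thresholds, DESeq2 1.42.0, thinned counts, a replicate block, the 6 samples alone and leaving out each sample. Reads of multigene families may be split between near copies. Some genes that these rules named are not reported here.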

Additional observations from a re-analysis of the deposited data

Results flagged for a closer look

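For 93 of the 186 genes named above, the effect of IFNα with CpG differed from that without CpG by the interaction test of edgeR (adjusted p under 0.1). Values are differences of log2 fold changes, with CpG minus without CpG. They were above 0 for 55 genes and below 0 for 38. The largest above 0 were those of Jun (4.63), Atf3 (4.44), Tbx21 (3.76), Cd69 (3.41), Cxcl10 (3.27), Dusp5 (3.17), Id2 (3.03), Tnfsf10 (2.83), Csf1 (2.83), Myc (2.60), Tnfrsf10b (2.54) and Il6 (2.30). They were followed by Ccl4 (2.25), Cd86 (2.24), Cd200 (2.06), Trim12a (2.04), Irf1 (2.01), Shisa5 (1.83), Zbp1 (1.75), Ighg3 (1.75), Cd83 (1.69), Gm6545 (1.64), Irf4 (1.58) and Uba7 (1.57). Middle values were those of Ptk2b (1.56), Rtp4 (1.47), Isg20 (1.46), Ccl3 (1.46), Ccr7 (1.44), Cd40 (1.43), Rgs2 (1.42), Ddx58 (1.39), Pml (1.38), Bcl2 (1.37), Cd274 (1.37) and Ccnd2 (1.28). Smaller ones were those of Xaf1 (1.20), Cflar (1.11), Socs1 (1.11), Cr2 (1.09), Isg15 (1.06), Ddit4 (0.94), Fcer2a (0.93), Nlrc5 (0.90), Parp14 (0.83), Atf4 (0.82), Psmb9 (0.73) and Parp9 (0.72). The smallest above 0 were those of Dhx58 (0.72), Slfn8 (0.70), Casp4 (0.67), Tap1 (0.66), Trim30a (0.59), Ly6a (0.52) and Tapbp (0.43).

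The largest differences below 0 were those of Ly6c2 (-2.99), Klhl6 (-2.60), Ms4a6b (-2.58), Ms4a6c (-2.38), Mvd (-2.38), Ms4a4b (-2.34), S1pr4 (-2.24), Lynx1 (-2.16), Hdac9 (-2.02), Ms4a4c (-1.93), Fcrla (-1.85) and Mzb1 (-1.81). Next came Nt5c3 (-1.75), Gbp3 (-1.70), S100a10 (-1.63), Gbp2 (-1.62), Sting1 (-1.52), Ly6d (-1.44), Daxx (-1.28), Btk (-1.20), Pim2 (-1.16), Bcl2l11 (-1.12), Pik3cg (-1.09) and Scd2 (-1.07). Lower in size were Cd79b (-1.0), Parp1 (-0.99), Bach2 (-0.98), Cd79a (-0.96), Coro1a (-0.88), Iglc2 (-0.86), Bst2 (-0.76), Lbh (-0.74), Bank1 (-0.64), Tcf3 (-0.63), Pou2af1 (-0.63) and Tlr9 (-0.52). The smallest below 0 were Apobec3 (-0.48) and Ly6e (-0.45). A time in culture is not stated for the unstimulated cells, so that an interaction and an effect of culture cannot be told apart. Single genes were not searched for samples that stand apart, since the groups have 3 samples.

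Of the 93 interactions, 62 kept their call under each alternative and 31 lost it under at least one, none with a change of sign. The 13 that were lost under 5 or more alternatives were those of Dhx58 (12), Ly6e (12), Casp4 (11), Parp9 (11), Socs1 (11), Fcer2a (9), Ly6a (9), Tlr9 (9), Tapbp (8), Tnfsf10 (8), Scd2 (7), Isg15 (6) and Ddit4 (5), with the number of alternatives in parentheses. The other 18 were lost under 1 to 4. Without Unstimulated replicate 3, the interaction was no longer called for Cxcl10 (2.42), Il6 (1.94), Lbh (-0.60), Pou2af1 (-0.51) and Apobec3 (-0.39). Without CpG replicate 3, calls were lost for Rgs2 (1.28), Rtp4 (1.16), Pik3cg (-0.84), Parp14 (0.58), Bst2 (-0.55) and Slfn8 (0.54). Without IFNα replicate 2, the interaction was no longer called for Ccl3 (1.18). Without Unstimulated replicate 1, calls were lost for Ccl4 (1.07), Cd274 (0.76) and Ccl3 (0.73). Without CpG + IFNα replicate 3, the interaction was no longer called for Cr2 (0.72). Without Unstimulated replicate 2, calls were lost for Ighg3 (1.34). Without CpG replicate 1, the interaction was no longer called for Ly6c2 (-2.30). Without CpG + IFNα replicate 2, calls were lost for Rgs2 (1.14) and Slfn8 (0.58). Without CpG replicate 2, the interaction was no longer called for Slfn8 (0.64). Nlrc5 lost its call only with thinned counts (0.61).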

How the results depend on the processing

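The increases held under most alternatives and the decreases depended more on the threshold. With a fold change of 2 inside the test (glmTreat), 177 genes rose and 18 fell, 9 of the genes that rose had an interaction below 0 and 11 of those that fell had one below 0. Then 0 genes fell both with and without CpG, against 28 in the main fit and 22 by DESeq2. With a log2 fold change over 2, 150 rose and 15 fell, 49 and 8 of those that rose had an interaction above and below 0, 9 of those that fell had one below 0, and 110 and 0 were shared with IFNα alone. DESeq2 called 265 up and 151 down, and 52 decreases with an interaction below 0. Scaling, filters, thinned counts and the 6 samples alone left the counts of DEGs over all genes within 1.5 times, but not always the genes. With thinned counts 239 of the 278 genes that rose (86%), 105 of the 190 that fell (55.3%) and 42 of the 86 of these with an interaction below 0 (48.8%) were shared. The other settings, apart from both stricter thresholds and left-out samples, shared 87.1% to 100% of the genes that rose and 74.7% to 100% of those that fell. Leaving out 1 CpG or CpG + IFNα sample kept 89.9% to 97.5% of the genes that rose. It kept 67.9% to 86.3% of those that fell. Counts within lists moved more. Leaving aside both stricter thresholds, DEGs that fell were 0 to 2 in the plasma cell program against 2, 0 to 2 in homing against 2, 1 to 5 in the cell cycle against 4, 0 to 2 in cell death against 1, 0 to 1 in glycolysis against 1 and 1 to 2 in MHC class II against 2, and DEGs that rose were 0 to 1 in B cell identity against 1, in amino acid metabolism against 1 and in mTOR against 0, and 1 to 2 in NF-κB against 1. Among nucleic acid sensors, DEGs that fell were 0 to 1 against 1. Lists with 0 held 0 to 1, in costimulation, AP-1, chemokine and PARP genes for those that fell, and in immunoglobulin genes for those that rose. Leaving out 1 sample gave 257 to 298 genes up and 152 to 233 down, 77 to 103 and 13 to 23 increases with an interaction above and below 0, 50 to 109 decreases with one below 0, and 182 to 193 and 22 to 33 shared genes. With 1 to 3 bases between the GAAA copies the motif was found for 38.2% of genes that rose and 8.85% of all genes, and within 150 bases before the start for 21.6% and 2%. The cause of these shifts was not tested, except that stricter thresholds keep fewer genes.

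The labels do not say what a replicate number shares across groups. Names in the barcode list carry a number across groups too, without stating that it marks a mouse. Same-numbered CpG and CpG + IFNα samples deviated together with correlations of 0.1806, 0.2235 and 0.0763, and each of the 6 samples correlated best with its own number. The correlations were 0.2266, 0.2407 and 0.1351 between IFNα and CpG + IFNα samples, and -0.0899 to 0.0308 between unstimulated samples and those of the other groups. With the replicate block, 277 genes rose and 195 fell, and no count over all genes moved by over 1.5 times. It called Myc, Ifnar1 and Xbp1, which were not called without it, and no named call was lost. Within lists, B cell identity held 0 DEGs that rose, against 1.

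Of 160 named genes with an adjusted p under 0.1, 81 kept their call under each alternative and 79 lost it under at least one, 55 of them with the 2-fold limit inside the test alone. Of 26 named genes that were not called, 6 (Myc, Ccr7, Ifnar1, Xbp1, Mavs and Tnf) were called under at least one. Among the named genes, direction changed only for some of those that were not called, whose log2 fold changes were near 0. The reversed values were 0.02 for Aim2 and 0.0034 for Il10 with DESeq2 size factors, 0.06 for Aim2, 0.02 for Ifnar2, 0.04 for Il10, 0.02 for Irf3, 0.0011 for Ly6e and 0.02 for Ms4a1 with no filter on low counts, 0.02 for Aim2 and 0.04 for Il10 with DESeq2, 0.05 for Aim2 with thinned counts, 0.03 for Aim2 and 0.02 for Il10 with rRNA and mitochondrial genes left out, 0.03 for Aim2 and 0.01 for Il10 with the 6 samples alone, 0.03 for Il10 with the replicate block, -0.01 for Pax5 with library totals. Leaving out 1 sample gave log2 fold changes of -0.12 to 0.19 for Aim2, -0.14 to 0.05 for Ifnar2, -0.19 to 0.32 for Il10, -0.10 to 0.00 for Irf3, -0.09 to 0.02 for Ms4a1, -0.07 to 0.09 for Pax5, -0.16 to 0.07 for Ube2e1.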
